A study of Mus musculus with 8 samples.

Results

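This account covers 10 genes of the autophagy machinery in platelet RNA: 4 members of the ATG8 family (Gabarap, Gabarapl1, Gabarapl2 and Map1lc3a), 4 genes of the ATG8 and ATG12 conjugation steps (Atg4b, Atg7, Atg3 and Atg12), and 2 genes that start autophagosome formation (Ulk1 and Becn1). They were found by symbol among the 43548 genes of the deposited expression table, and all 10 have 1 row each. The group was selected on values of the genotype contrast described here, among others, so the genotype differences of these genes are given as a description with no test. RNA was sequenced from washed platelets of TNFdARE mice (4) and control littermates (4), and the labels give 2 females and 2 males per group. TNFdARE mice carry a deletion of the AU-rich elements of Tnf, which otherwise shorten the life of its mRNA, in every cell, and were backcrossed with C57BL/6J. Control mice are labelled as lacking the allele. All mice were 8 to 12 weeks old and untreated. Other lines in the same labels speak of 3 mice per group and of older males, and each mouse is called male or female here by its own label and nothing else.

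Macroautophagy begins when the ULK1 kinase complex activates the Beclin-1 phosphatidylinositol 3-kinase complex, which marks the membrane where the autophagosome forms. ATG8 proteins are ubiquitin-like. ATG4 proteases cut their carboxyl end to expose a glycine, ATG7 acts as the E1-like activating enzyme, ATG3 as the E2-like enzyme, and the ATG12 conjugate as the ligase that joins the glycine to phosphatidylethanolamine. Platelets have no nucleus, so their mRNA is what the megakaryocyte passed on, and platelets of mice and humans carry out basal autophagy.

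The last 60 coding bases of the 4 ATG8 genes are shown because they hold the codon of the glycine that is joined to the membrane, which is in capitals in each. They were taken from the GENCODE M21 transcripts of mm10 and are read 5′ to 3′ on the + strand. They lie in the coding part of 1 exon each, at chr11:69994465-69994524 for Gabarap, chr6:129541108-129541167 for Gabarapl1, chr8:111952346-111952405 for Gabarapl2 and chr2:155277578-155277637 for Map1lc3a.

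Gabarap: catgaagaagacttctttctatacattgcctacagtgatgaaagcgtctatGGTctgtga

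Gabarapl1: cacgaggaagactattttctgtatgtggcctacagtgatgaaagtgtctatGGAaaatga

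Gabarapl2: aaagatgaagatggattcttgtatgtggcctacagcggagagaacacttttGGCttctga

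Map1lc3a: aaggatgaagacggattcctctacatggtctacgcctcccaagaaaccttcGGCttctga

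In each of the 4 genes 1 residue follows this glycine, which is the residue that ATG4 removes. Gabarap, Gabarapl1 and Gabarapl2 encode 117 residues each and Map1lc3a encodes 121. Gabarap and Gabarapl1 are the closest pair, with 86.3% identical residues and 74.9% identical coding bases. Gabarap shared 57.3% of residues with Gabarapl2 and 31.1% with Map1lc3a. The longest run of bases that Gabarap shares exactly with any other of the 4 is 17, against a read length of 150 bases, so reads of the coding part can be told apart between these paralogs. Map1lc3b, the other widely expressed LC3 gene, was not analysed here.

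Expression values were read as FPKM, fragments scaled to transcript length and to library size. Libraries differed widely in detection, and their read numbers are not known. Between 818 (TNFdARE mouse 1) and 4917 (TNFdARE mouse 3) genes were above 0, and TNFdARE mouse 4 had 1225, the next lowest number. The gene AY036118 alone made up 67.7% of the summed FPKM of TNFdARE mouse 1, against 33.7% to 51.8% in the other mice. Hprt, which most cells express, was listed at 0 in all 8 mice. Ppia was at 0 in 6 of them and Gapdh in 5, while Actb was above 0 in all 8, at 51.1 to 97.3 FPKM. This means that a 0 in these files may come from an estimate that failed and cannot be taken as absence. Of the defining platelet markers, 13 of 16 were above 0 in all 8 mice, and Pf4 ranged from 195 to 472 FPKM. The summed platelet list lay between 1232 and 1713 FPKM for control mice and between 1171 and 1303 FPKM for TNFdARE mice. Of its 15 tested markers, 11 were lower and 4 higher in TNFdARE mice, with a median log2 difference of -0.40 and none with a limma unadjusted p under 0.05. Most tested genes were also lower, with 966 of 1534 lower, 568 (37.0%) higher and a median of -0.30. The monocyte and macrophage list, with Itgam, Cd68, Mpeg1, Ly6c2 and Ccr2 at 0 in all mice, summed to 30.8 to 50.3 FPKM for control and 12.0 to 36.1 FPKM for TNFdARE mice, and its 1 tested marker was lower by a log2 difference of -0.94. Of the B cell list, Cd79a, Cd79b and Ms4a1 were at 0 in all mice, the sums were 0 to 34.3 FPKM and 0.129 to 13.7 FPKM, and both tested markers were lower. The neutrophil list summed to 0 to 3.66 FPKM for control and 0 to 10.3 FPKM for TNFdARE mice, with its 1 tested marker higher by 0.87, and the T cell list stayed at or below 1.02 FPKM in sum. In the monocyte, B cell and neutrophil lists no tested marker had a limma unadjusted p under 0.05, and the part of any of these cells in the member values below was not tested. In bulk RNA, fewer cells of a type and less RNA per cell cannot be told apart.

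Gabarap was above 0 in all 4 control mice and in 2 of 4 TNFdARE mice. It measured 13.1, 6.34, 28.2 and 1.11 FPKM in control mice 1 to 4, and 0, 0.1001, 4.81 and 0 FPKM in TNFdARE mice 1 to 4. The groups overlapped at a single point, since TNFdARE mouse 3 lay above control mouse 4, and the other 3 TNFdARE mice lay below every control mouse. The difference, TNFdARE minus control, was -2.49 on log2(FPKM + 1) with a standard error of 0.91. Gabarap was also variable among controls, at 12.2 ± 11.7 FPKM (SD, n = 4), a coefficient of variation of 96.4%. Among the 772 tested genes that were above 0 in every control mouse, 90.2% varied less, and the median coefficient was 50.8%. The 2 TNFdARE mice in which Gabarap was listed at 0 were the 2 libraries with the fewest genes above 0. Of the same 772 genes, 116 (15.03%) were at 0 in both of these libraries. With both left out, the difference was -1.82, resting on 2 TNFdARE mice at 0.1001 and 4.81 FPKM.

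Gabarapl1, the closest paralog of Gabarap, was the single member above 0 in all 8 mice. It measured 2.33, 10.05, 8.19 and 3.47 FPKM in control mice 1 to 4, and 16.1, 4.16, 8.28 and 20.1 FPKM in TNFdARE mice 1 to 4. The groups overlapped, and TNFdARE mice 1 and 4, where Gabarap was listed at 0, had the highest Gabarapl1 values of all 8. The log2 difference was 0.88 with a standard error of 0.67, and 0.15 with these 2 libraries left out. The same 2 mice had the highest summed globin transcripts, at 6802 and 14556 FPKM against 734 to 2896 FPKM in the other 6. Over the whole erythroid list, 12 of 14 markers had a row and 11 of them had a value above 0, with Klf1 at 0 in all 8. Its summed level lay between 752 and 2204 FPKM for control mice and between 1111 and 14672 FPKM for TNFdARE mice. All 7 tested markers were higher in TNFdARE mice, 6 of them with a limma unadjusted p under 0.05. Of all tested genes, 37.0% were higher and 4.50% had such a p. The part of erythroid RNA in the Gabarapl1 values was not tested. A non-coding gene on the opposite strand, 1700101I11Rik, shares 570 exonic bases with Gabarapl1, 28.3% of its exonic length. Its values were 0, 0.112, 1.85 and 2.34 FPKM in control mice 1 to 4 and 0, 0, 1.05 and 9.27 FPKM in TNFdARE mice 1 to 4. Whether the libraries kept the strand is not given in the sources used here, so it cannot be said whether reads from the shared bases were separated between the 2 genes.

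Gabarapl2 was low throughout, with a mean over the 8 mice of 0.712 FPKM, and it did not reach the mean of 1 FPKM needed to enter the fit. It measured 0.177, 0.235, 0.396 and 1.00 FPKM in control mice 1 to 4, and 0, 1.01, 2.88 and 0 FPKM in TNFdARE mice 1 to 4. The highest value was in TNFdARE mouse 3, the library with the most genes above 0, and the zeros were in the 2 libraries with the fewest. Gabarapl2 transcripts match 3 pseudogenes at 96.6% to 99.4% identity over 349 to 352 bases. Gm5829 was listed at 0 in all 8 mice, and Gm3724 and Gm6051 were not analysed here, so the Gabarapl2 values may hold or lack reads that fit these copies.

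Map1lc3a, which encodes an LC3 protein, was listed at 0 in all 4 control mice. In TNFdARE mice 1 to 4 it measured 0, 4.21, 1.42 and 7.68 FPKM. Only TNFdARE mouse 1, which had the fewest genes above 0 of all libraries, shared the 0 of the controls. The log2 difference was 1.69 with a standard error of 0.77. No fold is given against a group listed at 0. Of the 1534 genes tested, 65 were at 0 in every control mouse, and 13 of these were above 0 in at least 3 TNFdARE mice, Map1lc3a among them.

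**Figure D1:**
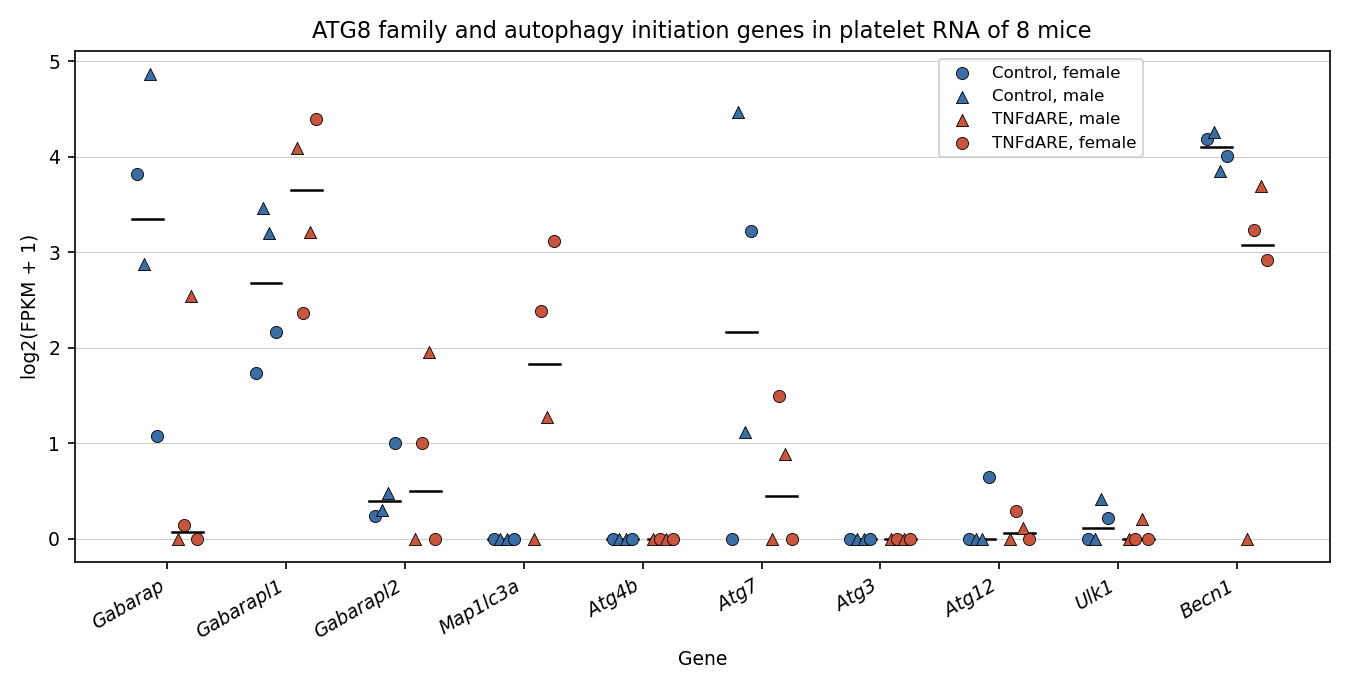
Each point is 1 mouse, plotted as log2(FPKM + 1) on the vertical axis for the 10 genes on the horizontal axis, with control mice in blue, TNFdARE mice in red, females as circles, males as triangles and group medians as bars. The 4 control mice sit together for Becn1, between 13.4 and 18.2 FPKM, and are spread for Gabarap, between 1.11 and 28.2 FPKM.

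Set against its paralogs within each mouse, Gabarap had no fixed rank. It was the highest of the 4 ATG8 genes in control mice 1 and 3, and Gabarapl1 was the highest in control mice 2 and 4 and in TNFdARE mice 1, 3 and 4. In TNFdARE mouse 2, Map1lc3a at 4.21 FPKM and Gabarapl1 at 4.16 FPKM were nearly level. Gabarap made up 83.9%, 38.1%, 76.7% and 19.9% of the summed ATG8 FPKM of control mice 1 to 4. For TNFdARE mice 1 to 4 the shares were 0%, 1.06%, 27.7% and 0%. The sum itself was 15.6, 16.6, 36.8 and 5.59 FPKM in control mice and 16.1, 9.48, 17.4 and 27.8 FPKM in TNFdARE mice. The TNFdARE sums lay within the range of the control sums.

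Over all 8 mice, the log2 level of Gabarap minus that of Gabarapl1 was -1.17 ± 2.37 (SD, n = 8), higher in 2 mice and lower in 6, with a two-sided exact sign-flip permutation p of 0.203. Gabarap minus Gabarapl2 was 1.29 ± 1.94, higher in 5 mice and lower in 1, with an exact permutation p of 0.156. Gabarap minus Map1lc3a was 1.07 ± 2.80, higher in 5 mice and lower in 2, with an exact permutation p of 0.328. Adjusted over these 3 pairs, the exact permutation p-values were 0.305, 0.305 and 0.328. The smallest p possible was 0.00781 for Gabarapl1, 0.0312 for Gabarapl2 and 0.0156 for Map1lc3a. Mice with both genes at 0 add nothing to the test. The spread over the 8 mice includes the difference between genotypes on which the genes were selected. Nothing is therefore concluded from these p-values. With 1 mouse left out, the differences ran from -1.63 (without control mouse 1) to -0.70 (without TNFdARE mouse 4) for Gabarapl1, from 0.85 (without control mouse 3) to 1.60 (without TNFdARE mouse 2) for Gabarapl2, and from 0.52 (without control mouse 3) to 1.67 (without TNFdARE mouse 4) for Map1lc3a. Gabarap was above Gabarapl2 and Map1lc3a in 4 of 4 control mice, by 2.65 ± 1.87 and 3.16 ± 1.61 on the log2 scale (SD, n = 4). Map1lc3a was listed at 0 in all 4, so the 3.16 is the level of Gabarap itself. Such a 0 may be a failed estimate, so it is not read as a level of Map1lc3a. In the control mice Gabarap was above Gabarapl1 in 2 of 4, with a mean difference of 0.52 ± 1.59. In TNFdARE mice it was below Gabarapl1 in 4 of 4, with a mean difference of -2.85 ± 1.74. Its differences from Gabarapl2 and Map1lc3a in these mice were -0.071 ± 0.597 and -1.02 ± 2.01, opposite in sign to those over all 8. Gabarap itself was listed at 0 in TNFdARE mice 1 and 4. With 4 mice the smallest exact permutation p is 0.125, so these within-group differences cannot reach 0.05.

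**Figure D2:**
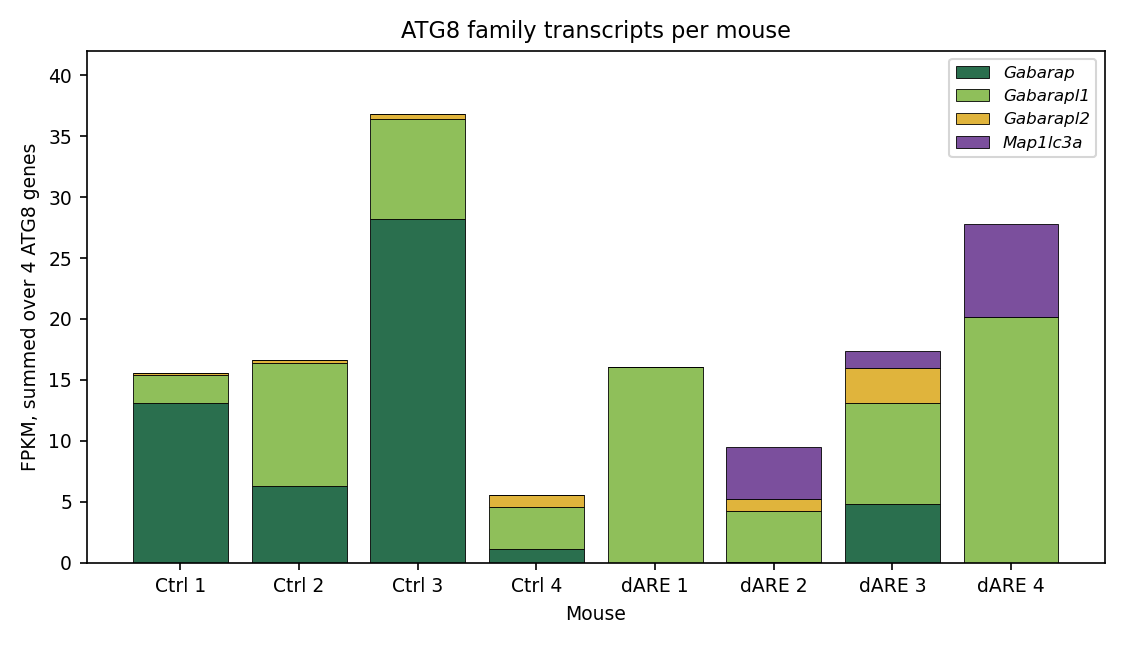
Bars give the FPKM of the 4 ATG8 genes stacked for each mouse, with control mice 1 to 4 on the left and TNFdARE mice 1 to 4 on the right. Gabarapl1 is present in every bar, from 2.33 to 20.1 FPKM, Map1lc3a appears in 3 TNFdARE mice and in no control mouse, and Gabarap ranges from 0 to 28.2 FPKM.

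Of the conjugation genes, Atg7 was the only one to enter the fit. Atg7, the E1-like enzyme used by both the ATG8 and the ATG12 branch, measured 0, 21.1, 1.16 and 8.34 FPKM in control mice 1 to 4, and 0, 1.82, 0.851 and 0 FPKM in TNFdARE mice 1 to 4. The groups overlapped, and both had mice listed at 0. The log2 difference was -1.60 with a standard error of 0.95, and it rested in large part on 1 mouse, since it was -0.85 without control mouse 2. Atg3, which encodes the E2-like enzyme for ATG8 proteins, and Atg4b, which encodes the main ATG8 protease, were listed at 0 in all 8 mice. Atg12, the ubiquitin-like partner of ATG5, was listed at 0 in control mice 1 to 3 and at 0.564 FPKM in control mouse 4, and measured 0, 0.226, 0.0768 and 0 FPKM in TNFdARE mice 1 to 4. Atg12 transcripts share 164 bases at 95.1% identity with Syt11, in the opposite orientation, and Syt11 stayed at or below 0.707 FPKM in every mouse. No direction between genotypes can be read for Atg3, Atg4b or Atg12 at these levels.

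Ulk1, the kinase that starts the pathway, was above 0 in 3 of 8 mice, with a mean over all 8 of 0.0803 FPKM. It was listed at 0 in control mice 1 and 2 and at 0.329 and 0.162 FPKM in control mice 3 and 4, and measured 0, 0, 0.152 and 0 FPKM in TNFdARE mice 1 to 4. The values above 0 came from 3 of the 4 mice with the most genes above 0, and TNFdARE mouse 2, the other of these, was listed at 0.

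Becn1, which encodes Beclin-1, had the highest mean of the 10 genes, 11.4 FPKM over the 8 mice, and ranked 307 of the 1534 genes tested. It measured 17.3, 18.2, 13.4 and 15.05 FPKM in control mice 1 to 4, and 0, 8.37, 11.9 and 6.59 FPKM in TNFdARE mice 1 to 4. Every TNFdARE mouse lay below every control mouse. The log2 difference was -1.62 with a standard error of 0.77, -0.80 without TNFdARE mouse 1 and -0.62 without TNFdARE mice 1 and 4. The remaining 2 TNFdARE mice, at 8.37 and 11.9 FPKM, also lay below the lowest control mouse. Control mice were close to each other, at 15.99 ± 2.17 FPKM (SD, n = 4), a coefficient of variation of 13.6%, and 3.11% of the 772 genes above 0 in every control mouse varied less. Of these 772 genes, 300 (38.9%) were listed at 0 in TNFdARE mouse 1, as Becn1 was.

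Becn1 lies at chr11:101285952-101302286 on the - strand of mm10, and Cntd1, which encodes a cyclin-like protein of meiosis, lies across it on the + strand. The 2 genes share 3104 exonic bases between chr11:101286055-101296316, which is 43.9% of the exonic bases of Becn1. Cntd1 measured 75.4, 81.3, 113 and 63.2 FPKM in control mice 1 to 4, and 38.1, 63.0, 76.7 and 68.5 FPKM in TNFdARE mice 1 to 4. Its level was thus above that of Becn1 in every mouse, with Becn1 at 0.0962 to 0.238 of the Cntd1 value in the 7 mice where Becn1 was above 0. The Cntd1 groups overlapped, and its log2 difference was -0.44 with a standard error of 0.42 and a limma adjusted p of 0.860. Without knowing whether the libraries kept the strand, it cannot be said whether reads in the shared bases were separated between the 2 genes, so the Becn1 values may depend on how such reads were assigned. The part of this in the difference between genotypes was not tested.

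**Figure D3:**
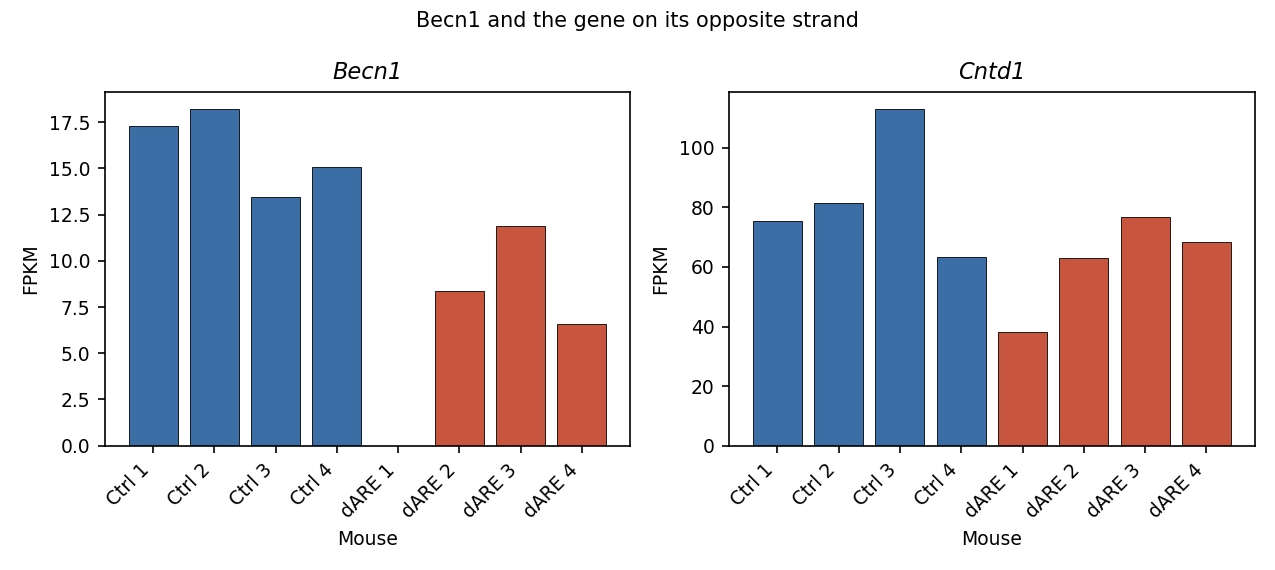
Bars give FPKM per mouse for Becn1 (left) and for Cntd1 on the opposite strand (right), on axes that start at 0 and differ in scale, with control mice in blue and TNFdARE mice in red. Becn1 is lower in all 4 TNFdARE mice than in any control mouse, and the Cntd1 values of the 2 groups overlap.

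Ordered by the number of genes above 0 in the whole table, the mice had equal or rising numbers of the 10 members above 0. Control mice 1 to 4 had 4, 5, 6 and 7 members above 0, and TNFdARE mice 1 to 4 had 1, 7, 8 and 3. Of the 1534 tested genes, control mice had 63.9%, 74.6%, 78.6% and 82.3% above 0, and TNFdARE mice had 41.7%, 86.2%, 93.0% and 57.0%. Ordered by this share, the mice were TNFdARE 1, TNFdARE 4, control 1, control 2, control 3, control 4, TNFdARE 2 and TNFdARE 3, and the number of members above 0 never fell along that order. Both measures come from the same libraries. Gabarap was listed at 0 in the 2 mice lowest in that order and above 0 in the other 6. Its level above 0 was 13.1 FPKM in control mouse 1, with 63.9% of tested genes above 0, and 0.1001 FPKM in TNFdARE mouse 2, with 86.2%. The part of library detection in the member values was not tested.

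**Figure D4:**
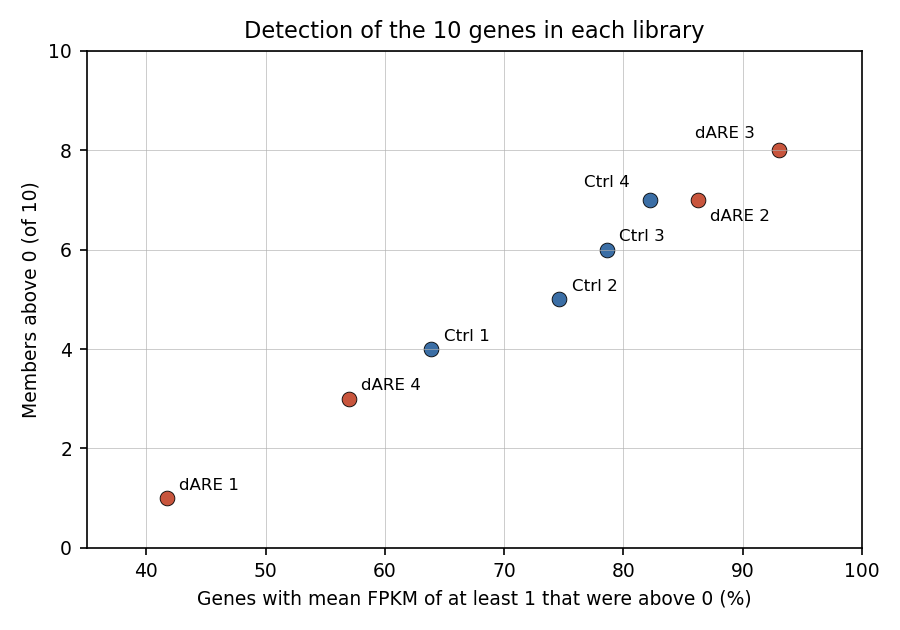
Each point is 1 mouse, with the share of the 1534 tested genes above 0 (%) on the horizontal axis and the number of the 10 genes above 0 on the vertical axis, control mice in blue and TNFdARE mice in red. The points climb from TNFdARE mouse 1, with 1 member at 41.7%, to TNFdARE mouse 3, with 8 members at 93.0%.

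Of the 10 genes, 5 passed the filter on low values and entered the fit across all 1534 genes, 3 were above 0 in at least 1 mouse without passing it, and 2 were at 0 in all. The 5 that passed are not a sample of the 10, because a gene high in 1 group alone could pass. In the genotype comparison, 4.50% of all tested genes (69 genes, with 27 higher and 42 lower in TNFdARE mice) had a limma unadjusted p under 0.05, and 0% (0 of 1534) had an adjusted p under 0.05, the smallest being 0.860. The split turned to 40 higher and 11 lower without TNFdARE mice 1 and 4, and to 74 higher and 37 lower with sample weights. Since the members were selected on this contrast, their own calls are not counted. Groups that did not overlap were found for 3.32% of tested genes (51, of which 13 were higher and 38 lower). Becn1 also has groups that do not overlap, and nothing is read from this share, because the gene was selected on the same contrast. The log2 differences of the 5 were lower for Gabarap, Becn1 and Atg7 and higher for Gabarapl1 and Map1lc3a. The median over all genes tested was -0.30.

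**Figure D5:**
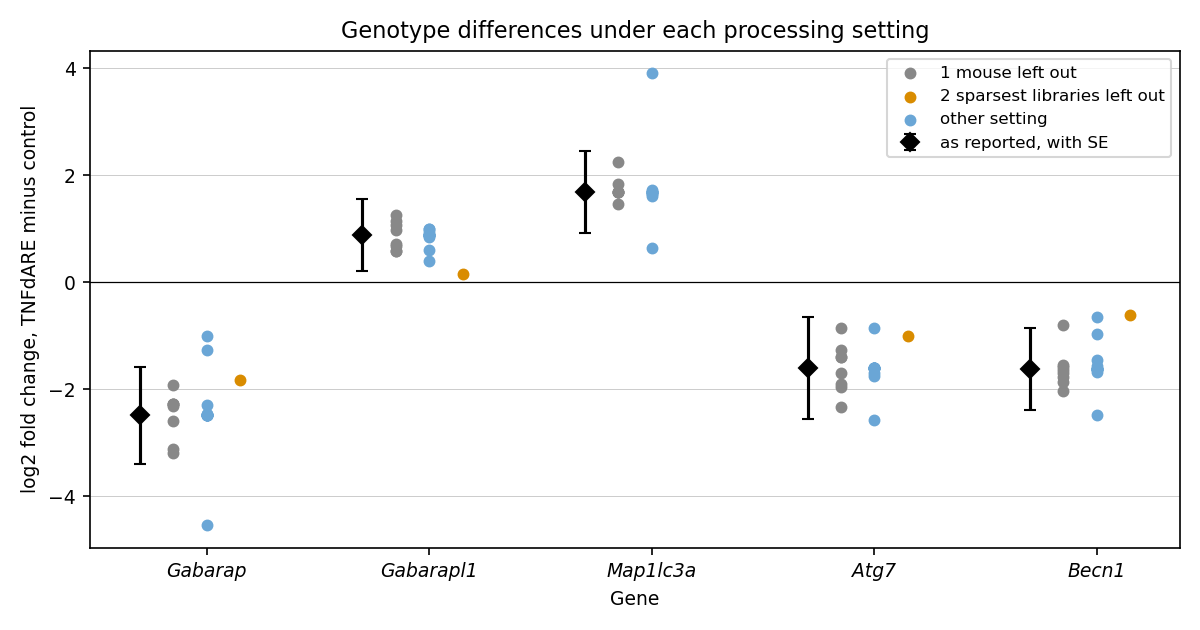
For the 5 genes that entered the fit, the log2 fold change (TNFdARE minus control) is plotted as reported (diamond, bar for the standard error), with 1 mouse left out (grey), under other processing settings (blue) and without the 2 libraries with the fewest genes above 0 (orange). Gabarap runs from -4.54 to -1.01, and without those 2 libraries Gabarapl1 is at 0.15 and Becn1 at -0.62, with Map1lc3a not fitted.

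Sex was not used to choose the genes and gives a test over the same 8 mice, with genotype as a covariate. No difference between males and females beyond the spread between mice was found for Gabarap, Gabarapl1 or Becn1. Map1lc3a is given as a description with no test, because it entered the fit only through TNFdARE mice. These were 2 females at 4.21 and 7.68 FPKM and 2 males at 0 and 1.42 FPKM, and all 4 control mice were listed at 0. Atg7 is also given with no test, because it was high in control mice alone. It reached 21.1 FPKM there and at most 1.82 FPKM in TNFdARE mice. Male minus female, the log2 difference was 1.31 for Gabarap with a standard error of 0.88, 0.83 for Gabarapl1 with 0.68, -1.06 for Map1lc3a with 0.76, 0.44 for Atg7 with 0.98 and -0.64 for Becn1 with 0.78. Single libraries turned 2 of these, Atg7 to -0.36 or -0.38 with control mouse 1 or 2 left out, and Becn1 to 0.22 without TNFdARE mouse 1. The others kept their sign with 1 mouse left out. Gabarap ran from 0.74 to 1.84, Gabarapl1 from 0.53 to 1.35 and Map1lc3a from -1.27 to -0.59. Gabarap was 2.22 with sample weights, past an unadjusted p of 0.05 in limma. Leaving Map1lc3a and Atg7 aside, the limma adjusted p-values of these members were all 0.955, and none had an unadjusted p under 0.05. Over all tested genes, 2.54% (39 of 1534) had an unadjusted p under 0.05 and none an adjusted one, the smallest being 0.955. Gabarap was highest in a male in each group, control mouse 3 and TNFdARE mouse 3, but its second male in the TNFdARE group was listed at 0.

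Other genes of the pathway were taken from a list of 49, of which 47 had a row. Of these, 33 were above 0 in at least 1 mouse, 14 were at 0 in all 8 and 7 reached a mean of 1 FPKM. None of the 7 had a limma unadjusted p under 0.05 between genotypes, the smallest being 0.192. In TNFdARE mice 3 were higher and 4 lower, and the median log2 difference was -0.03. A gene high in 1 group alone could reach the mean of 1 FPKM, so the 7 are not a sample of the list. Their directions are not read as a result about the pathway. Many partners of the members were listed at 0, which may be failed estimates, or had low values. All 4 other genes of the ULK1 complex (Ulk2, Rb1cc1, Atg13 and Atg101) were above 0 in at least 1 mouse, at no more than 1.61 FPKM. Of 8 other PI3K complex genes, 4 were above 0 in at least 1 mouse, at no more than 1.26 FPKM, and Pik3c3, the catalytic subunit that Beclin-1 binds, was at 0 in all 8 mice. Of 8 further conjugation genes 4 were above 0, at no more than 0.725 FPKM, and Atg5, the partner of ATG12, was at 0 in all 8. The highest values of Becn1, 18.2 FPKM, and of Atg7, 21.1 FPKM, were thus above the highest of any listed gene of the same step. The Atg7 value came from control mouse 2 alone, and its next highest was 8.34 FPKM. The Becn1 value may depend on reads in the bases shared with Cntd1.

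The 8 cargo receptors and adaptors that bind ATG8 proteins were better detected, with all 8 above 0 in at least 1 mouse and 4 tested. Sqstm1, which encodes the receptor p62 and was singled out after its values were seen, was the one gene of the 49 above 0 in all 8 mice, from 1.78 to 9.63 FPKM. Fyco1, an adaptor that links LC3 to kinesin, measured 2.09, 2.19, 0.00983 and 3.29 FPKM in control mice 1 to 4, and 0, 0.666, 0.618 and 0.0995 FPKM in TNFdARE mice 1 to 4. Its log2 difference was -0.96 with a standard error of 0.70, a limma adjusted p of 0.860 and a two-sided exact permutation p of 0.114. Of the TNFdARE mice, 3 lay above the lowest control mouse, so the groups overlapped. Vmp1, an endoplasmic reticulum protein needed for autophagosome formation, differed by 0.83 with a standard error of 0.87 and an exact permutation p of 0.486. Tax1bp1, another cargo receptor, differed by 0.83 with a standard error of 0.81 and an exact permutation p of 0.371. Single mice moved both, since Vmp1 was 0.33 without TNFdARE mouse 4, and Tax1bp1 was 0.26 without TNFdARE mouse 1 and 1.38 without TNFdARE mouse 4. These were the 3 largest differences among the 7, and none exceeded the spread between mice.

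Across the 8 mice, the 5 genes most like Gabarap in log2(FPKM + 1), among the 583 genes with a mean of at least 5 FPKM, were Gm5148 (Pearson r = 0.915), Gnai2 (0.900), Zeb2 (0.872), 3110062M04Rik (0.816) and Cntd1 (0.801). The 5 most like Becn1 were Aldh2 (0.977), Laptm5 (0.968), Gm10532 (0.968), Pdzk1ip1 (0.967) and A230087F16Rik (0.957). These values are descriptions over 8 points that share library, depth and genotype. All 5 genes most like Becn1 had their lowest value in TNFdARE mouse 1, and Aldh2 there measured 3.53 FPKM against 40.1 to 61.1 FPKM in the other 7. This follows in large part from how the 5 were picked, since Becn1 itself was listed at 0 in that mouse. Cntd1 ranked 81 of the 583 for likeness to Becn1, with r = 0.818.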

How the data were processed

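Washed platelet RNA of 8 mice was sequenced by the authors as 150 bp reads. The submitters' notes name Cufflinks and mm10, and the cited methods describe GSNAP. Versions, strand and handling of multi-mapped reads are not given in the sources used here. The deposited values were read as FPKM, which was inferred, since columns sum to different totals. Columns were matched by library name, with 0 left unmapped. FPKM are not counts, depth is unknown, and no count model was used. A gene whose FPKM averaged 1 or more was fitted on log2(FPKM + 1) by limma (3.58.1, under R 4.3.3, empirical Bayes with a trend, Benjamini-Hochberg), which was tested on simulated data. A fold change on this scale understates the change of low genes. Paralog levels and single genes were compared by exact permutation in Python 3.11.15 with scipy 1.17.1. Shared sequence was found with BLAST 2.17.0 on GENCODE M21 transcripts, at 95% identity over 150 bases. The members and lists were chosen with earlier results of these data known. Named are all 10 members, the 3 listed pathway genes with the largest difference and any past p under 0.05, the 5 genes most like Gabarap and Becn1, 4 genes every cell uses and genes that share sequence with a member. Sqstm1, Pik3c3, Atg5, AY036118, the other ULK1 complex genes and the cell type markers, such as Pf4 and Klf1, lie outside this rule. They were named after their values were seen. Alternatives were pseudocounts, filters, scalings, sample weights, covariates and leaving out mice. Litters are not given, so p-values measure the spread between these 8 mice. The spatial data were not analysed here, and the result for 1 marker gene is not reported here.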

Additional observations from a re-analysis of the deposited data

Results flagged for a closer look

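In all, 4 values stood far from those of the other 3 mice of their group, by the gap to the nearest mouse divided by the range of the group, against Dixon's critical value for 4 samples. Gabarap in TNFdARE mouse 3, at 4.81 FPKM against 0 to 0.1001 FPKM, gave 0.979. Sqstm1 in TNFdARE mouse 1, at 9.63 FPKM against 3.25 to 4.199 FPKM, gave 0.852. Atg12 in control mouse 4 gave 1.0 and Ulk1 in TNFdARE mouse 3 gave 1.0, each because it was the one mouse of its group not listed at 0. The 4 values came from 27 groups examined. The chance rate of Dixon's test does not hold for groups in which most mice are listed at 0. The members were also selected on these values, so no number expected by chance is given. No gene moved in opposite directions in females and males in every mouse.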

How the results depend on the processing

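The count of genes with an unadjusted p under 0.05 between genotypes, 69, was 36 with a mean of at least 5 FPKM required, where 583 genes were tested, and 111 with sample weights (74 higher, 37 lower), and ranged from 46 to 76 with 1 mouse left out. Without TNFdARE mouse 1 it was 35 higher and 28 lower, and without TNFdARE mouse 4 it was 26 and 21. The split leaned the other way without control mouse 1, at 12 higher and 37 lower, and without TNFdARE mouse 2, at 22 and 54. It was 51 without the 2 libraries with the fewest genes above 0 (40 higher, 11 lower), a setting chosen after the data were seen. With the replicate number as a block it was 64. The replicate numbers do not pair the mice, since same-numbered mice deviated together with correlations of only -0.07 to 0.06. Library names also share a number between control mouse 1 and TNFdARE mouse 1, and between control mouse 4 and TNFdARE mouse 3. What that number stands for is not given in the sources used here, and a block on it was not tested. No setting gave an adjusted p under 0.05. Quantile normalization moved the median of all genes from -0.30 to -0.12 and the split from 27 higher and 42 lower to 31 and 31. For sex, 39 became 15 with the mean of 5, 105 with sample weights and 27 to 62 with 1 mouse left out, the highest without TNFdARE mouse 3.

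The members were selected on the genotype contrast, so their signs under these settings are no evidence of stability. Gabarap was -4.54 with a pseudocount of 0.1 and -1.01 with sample weights, and -3.18 to -1.92 with 1 mouse left out. Map1lc3a was 3.91 with a pseudocount of 0.1 and 0.65 with 5, and 1.46 to 2.26 with 1 mouse left out. It could not be fitted without TNFdARE mouse 4 or under the stricter filters. Gabarapl1 was 0.58 to 1.26, Atg7 -2.34 to -0.85 and Becn1 -2.03 to -0.80 with 1 mouse left out. For sex, Gabarap reached 2.22 with sample weights, past an unadjusted p of 0.05. Atg7 turned to -0.14 with sample weights and ran from -0.38 to 0.96 with 1 mouse left out, below 0 when that was control mouse 1 (-0.36) or 2. Becn1 turned to 0.18 with sample weights and ran from -1.25 to 0.22, above 0 without TNFdARE mouse 1. Gabarap minus Gabarapl1 was 0.52 in control mice alone. In TNFdARE mice alone, Gabarap minus Gabarapl2 was -0.071 and minus Map1lc3a -1.02. The count of 8 members above 0 in TNFdARE mouse 3 was 5 at a threshold of 1 FPKM. The cause of these moves was not tested. Depth is unknown, so values near 0 give no direction.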
